A study of Homo sapiens with 7 samples.

Results

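The genes that differed between JMJD3c-hESCs at Day 4 of doxycycline (Dox) and both untreated libraries of the series numbered 515 of 22670 gene entries. A gene was counted as higher at Day 4 when its FPKM (a level scaled for transcript length and for the mapped reads of the library) was more than 2-fold that of JMJD3c-hESCs at Day 0 and also more than 2-fold that of the untreated JMJD3c mut-hESCs, with more than 4 FPKM at Day 4. It was counted as lower when Day 4 was below each untreated library by more than 2-fold, with more than 4 FPKM in each of them. By this rule 347 genes (risers) were higher and 168 (fallers) were lower. These are 3.32% and 1.61% of the 10448 entries that exceeded 4 FPKM in at least 1 of the 3 libraries. Counts of called list members given below are to be read beside these shares. The FPKM values of these 3 libraries chose the genes, so their sizes of change are a description and carry no test. With 1 library per condition, replicate error is unknown and no p-value can be given.

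All 7 libraries came from SEES-3 cells, an established human embryonic stem cell (hESC) line, kept feeder-free in StemFit AK-03 medium on iMatrix-511. The cells carried a reverse Tet transactivator and a piggyBac transgene with a Tet-responsive element, which drove either HA-tagged JMJD3c, the catalytic domain of JMJD3 with a nuclear localization signal, or the same domain with a point mutation that removes its activity. The JMJD3c-hESC line gave 1 library before Dox (Day 0), and 1 each from Days 1, 2, 3 and 4 in Dox (1 µg/ml). For the JMJD3c mut-hESCs there was 1 library before Dox and 1 from Day 4 in Dox. Both lines were stable transgenic clones, so that line and clone cannot be told apart, and all groups carry a transgene. JMJD3, the product of KDM6B, is a demethylase of histone H3 lysine 27, and trimethylation of this residue (H3K27me3) is placed by Polycomb repressive complex 2 and marks silenced developmental genes in hESCs. Such genes encode transcription factors and secreted signals of the early germ layers, and loss of the mark accompanies their activation during differentiation.

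KDM6B, whose entry collects reads of the transgene as well as of the native gene, was listed at 3.45 FPKM at Day 0 and 2.4 FPKM in the untreated mutant line, at 158, 212, 248 and 282 FPKM at Days 1 to 4, and at 454 FPKM in the Dox-treated mutant line. Both untreated libraries were low and all 5 Dox-treated libraries were high, as their labels state. hESC markers were present in every library: POU5F1 was listed at 841 and 716 FPKM in the untreated libraries and at 619 FPKM at Day 4, and LIN28A at 485, 530.0 and 442 FPKM. Other markers were reduced further at Day 4, though none passed the rule. SOX2 was at 136, 99.6 and 65.9 FPKM and DNMT3B at 404, 369 and 191 FPKM. SALL4 lay between the untreated libraries (61.5, 45.9 and 54.0 FPKM). The files hold no read counts. Estimates from the steps between low FPKM values ranged from 3570000 reads (Day 0) to 7350000 reads (untreated mutant line), with 4890000 reads at Day 4. For a transcript of 2000 bases, 4 FPKM corresponds to about 26 reads at Day 0, 53 in the untreated mutant line and 35 at Day 4. The untreated lines also differed from each other: 279 entries were higher in the mutant line than at Day 0 (2.78% of 10051) and 705 were lower (7.01%). Against Day 0 alone 602 entries (5.87%) were higher at Day 4 and 775 (7.56%) were lower, and against the untreated mutant line alone 708 (7.05%) were higher and 392 (3.9%) were lower.

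**Figure D1:**
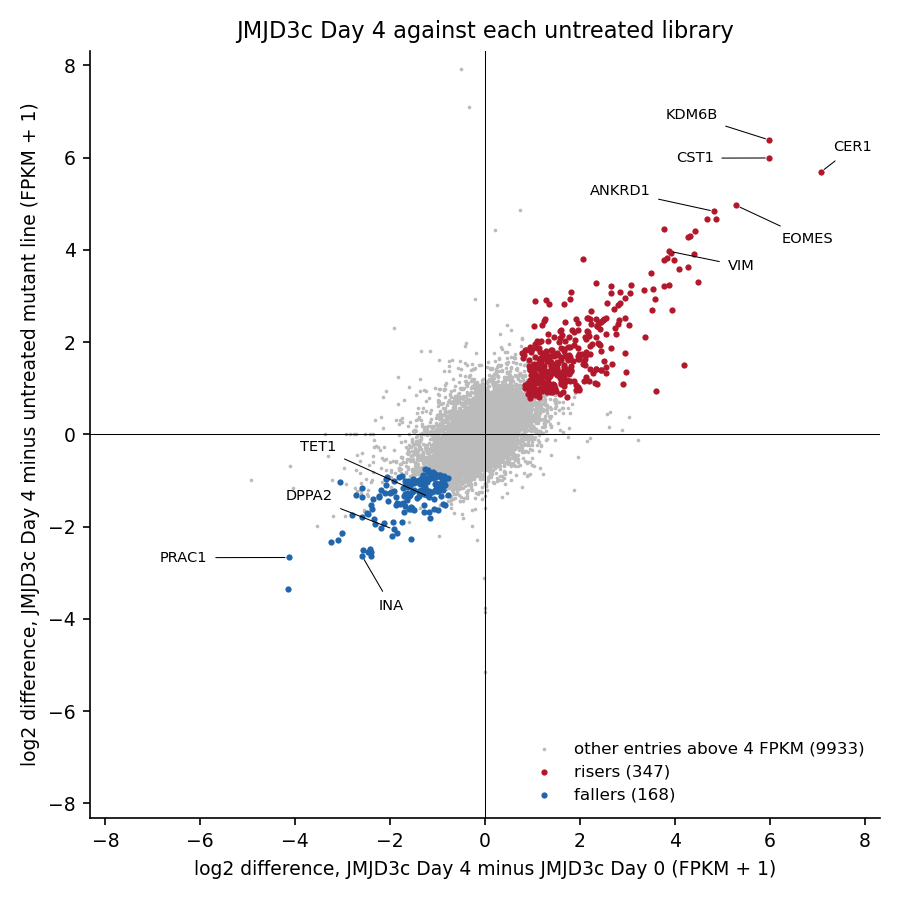
Each point is 1 of the 10448 entries above 4 FPKM in at least 1 of the 3 libraries. The x axis is the log2 difference between Day 4 and Day 0 and the y axis that between Day 4 and the untreated mutant line, both after adding 1 to FPKM. The 347 risers (red) lie upper right and the 168 fallers (blue) lower left, and 10 genes are labelled. The largest differences are rises, with CER1, KDM6B and CST1 farthest out.

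Among the genes that stand for both directions, EOMES, a T-box factor of the primitive streak, and CER1, a secreted antagonist of NODAL and BMP, were higher at Day 4, and TET1, which oxidizes methylated cytosine, and DPPA2, a chromatin protein of pluripotent cells, were lower. EOMES (27757440 to 27764206 on chromosome 3, build hg19) stood at 0 FPKM in the Day 0 library and 0.257 FPKM in the untreated mutant line, at 1.39, 10.9, 22 and 38.2 FPKM at Days 1 to 4, and at 0.196 FPKM in the Dox-treated mutant line. CER1 was at 1.85, 34.0, 84.1 and 134 FPKM at Days 1 to 4 and at no more than 1.62 FPKM in the other 3 libraries. These levels were higher on each day than on the day before. TET1 (chromosome 10, 70320413 to 70454239) was at 14.4 and 16.5 FPKM in the untreated libraries, at 13.7, 10.7, 8.19 and 5.83 FPKM at Days 1 to 4, and at 14.3 FPKM in the Dox-treated mutant line. DPPA2 (chromosome 3, 109012635 to 109035364) was at 13.3 and 14.8 FPKM untreated, at 11.1, 5.52, 6.15 and 2.78 FPKM at Days 1 to 4, and at 11.9 FPKM in the Dox-treated mutant line. For both genes the Dox-treated mutant line was nearer to the untreated libraries than to Day 4. The study itself named these 4 genes or picked them from these libraries, and 14 of the risers and 5 of the fallers are on a list of 38 genes taken from its text and, in part, from its heat map, which also marks CXCR4, GSC and LHX1. The genes outside that list are the main subject here.

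The stretches of 250 bases that precede the annotated start of 6 of these genes are shown as the starts of the genes that stand for each direction. They comprise the 4 genes above, ANKRD1 (the riser with the largest difference, beyond those named by the study, for which a sequence was at hand) and PRAC1 (the largest fall). They are RefSeq sequences on GRCh38.p14, a later build than the hg19 of the expression files, written 5′ to 3′ on the gene's strand, with CG dinucleotides in capitals.
EOMES, chr3:27722324-27722573, minus strand: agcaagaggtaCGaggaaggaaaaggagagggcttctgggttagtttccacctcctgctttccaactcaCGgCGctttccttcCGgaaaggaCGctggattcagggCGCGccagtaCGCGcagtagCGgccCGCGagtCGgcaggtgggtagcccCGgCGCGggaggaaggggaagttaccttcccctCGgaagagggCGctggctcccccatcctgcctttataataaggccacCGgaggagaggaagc
CER1, chr9:14722734-14722983, minus strand: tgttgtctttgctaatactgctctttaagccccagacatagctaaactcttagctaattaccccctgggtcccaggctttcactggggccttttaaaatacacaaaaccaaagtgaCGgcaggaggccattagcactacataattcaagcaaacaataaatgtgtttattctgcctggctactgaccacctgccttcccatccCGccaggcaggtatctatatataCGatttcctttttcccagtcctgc
ANKRD1, chr10:90921088-90921337, minus strand: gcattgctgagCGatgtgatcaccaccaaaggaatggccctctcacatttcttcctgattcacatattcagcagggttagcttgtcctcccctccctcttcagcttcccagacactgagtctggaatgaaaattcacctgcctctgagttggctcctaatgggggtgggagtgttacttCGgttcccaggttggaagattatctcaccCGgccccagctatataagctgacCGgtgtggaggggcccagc
TET1, chr10:68560087-68560336, plus strand: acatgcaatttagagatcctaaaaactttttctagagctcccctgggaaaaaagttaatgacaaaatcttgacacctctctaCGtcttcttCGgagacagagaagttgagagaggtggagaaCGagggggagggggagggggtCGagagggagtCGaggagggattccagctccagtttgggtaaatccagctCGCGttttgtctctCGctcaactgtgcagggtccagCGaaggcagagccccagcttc
DPPA2, chr3:109316518-109316767, minus strand: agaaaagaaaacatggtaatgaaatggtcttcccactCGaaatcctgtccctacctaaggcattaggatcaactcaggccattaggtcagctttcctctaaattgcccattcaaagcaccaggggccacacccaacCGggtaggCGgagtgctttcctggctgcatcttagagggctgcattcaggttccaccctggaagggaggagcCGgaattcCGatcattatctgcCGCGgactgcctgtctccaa
PRAC1, chr17:48722519-48722768, minus strand: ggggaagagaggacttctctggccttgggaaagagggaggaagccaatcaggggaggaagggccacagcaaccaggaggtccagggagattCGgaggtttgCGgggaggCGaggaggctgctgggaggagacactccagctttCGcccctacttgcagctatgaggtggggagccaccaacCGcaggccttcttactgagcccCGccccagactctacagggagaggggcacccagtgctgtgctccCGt
The EOMES stretch holds 19 CG dinucleotides and is 62.0% G and C. CER1 and ANKRD1, which were also higher, hold 3 and 4. Among the fallers, TET1 holds 9, and DPPA2 and PRAC1 hold 7 each. Over whole promoters (250 bases before the start and 50 after it), 258 of the 347 risers and 129 of the 168 fallers matched an entry of the RefSeq table. A promoter with at least 55% G and C and a ratio of observed to expected CG of at least 0.65 was found for 64.0% of these risers, 71.3% of these fallers and 77.2% of the 8590 promoters matched to entries above 4 FPKM. The FOXH1 letters AATCCACA or AATACACA, read on both strands, occur in 5 riser promoters (1.94%), no faller promoter and 0.605% of those 8590 promoters. CER1, SP5 and PRDM1 are among the 5. TGANTCA, the letters bound by AP-1, occurs in 6.2%, 4.65% and 3.84%, and GGAATG, bound by TEAD factors, in 14.7%, 9.3% and 10.3%. Of the 6 genes shown, ANKRD1 holds both. Letters of TCF/LEF factors (3.1% of riser promoters, 3.53% of the 8590) and of the hypoxia response (24.0% and 27.6%) were less frequent in risers. T-box letters (3.1% of riser promoters, 2.79% of the 8590) and octamer letters (1.55% and 1.29%) had close shares. Octamer letters occur in 3.1% of faller promoters. GATA letters occur in 6.59% of riser promoters, 4.65% of faller promoters and 4.31% of the 8590. Over all promoters of the RefSeq table, FOXH1 letters occur in 1.54%, AP-1 letters in 7.76% and GATA letters in 10.5%. The TEAD share there was close to that of the risers. These shares describe letters in a window and not bound sites, and the part of the lower share of CG-rich promoters in them was not tested.

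The 15 largest rises outside the list of genes from the study, ranked by the smaller of the 2 log2 differences, were in CST1, ANKRD1, DIO3, SP5, CXCR4, TNC, VIM, TFF3, GAD1, NPPB, LHX1, GMPR, CHRD, CYP26A1 and COLEC12. They comprise secreted or matrix proteins (CST1, TNC, TFF3, NPPB, CHRD), surface receptors (CXCR4, COLEC12), enzymes (DIO3, GAD1, GMPR, CYP26A1), the nuclear proteins ANKRD1, SP5 and LHX1, and the intermediate filament VIM. Of these, CXCR4 and LHX1 are marked in the heat map of the study. VIM (chromosome 10, 17270258 to 17279592), vimentin, had the highest level of the 15 in FPKM. Its level was 46.9 FPKM at Day 0 and 44.1 FPKM in the untreated mutant line, 108, 211, 413 and 704 FPKM at Days 1 to 4, and 138 FPKM in the Dox-treated mutant line. The Dox-treated mutant line thus stood above both untreated libraries and below Days 2 to 4. ANKRD1 (chromosome 10, 92671853 to 92681033), a cardiac ankyrin repeat protein, was listed at 0 FPKM in both untreated libraries, at Days 1 and 2 and in the Dox-treated mutant line, and at 7.69 and 27.5 FPKM at Days 3 and 4. DIO3, which inactivates thyroid hormone, followed the same course, with 0 FPKM in 4 libraries and 0.491, 14.3 and 24.5 FPKM at Days 2 to 4. Both appeared only in the later libraries of JMJD3c-hESCs, among the 7 libraries measured. The Cufflinks interval of DIO3 at Day 4 runs from 13.5 to 1668 FPKM, so its level there is poorly fixed. CYP26A1, which degrades retinoic acid, was at 2.63 and 4.4 FPKM untreated, at 10.5, 29.0, 35.5 and 48.8 FPKM at Days 1 to 4, and at 2.27 FPKM in the Dox-treated mutant line.

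**Figure D2:**
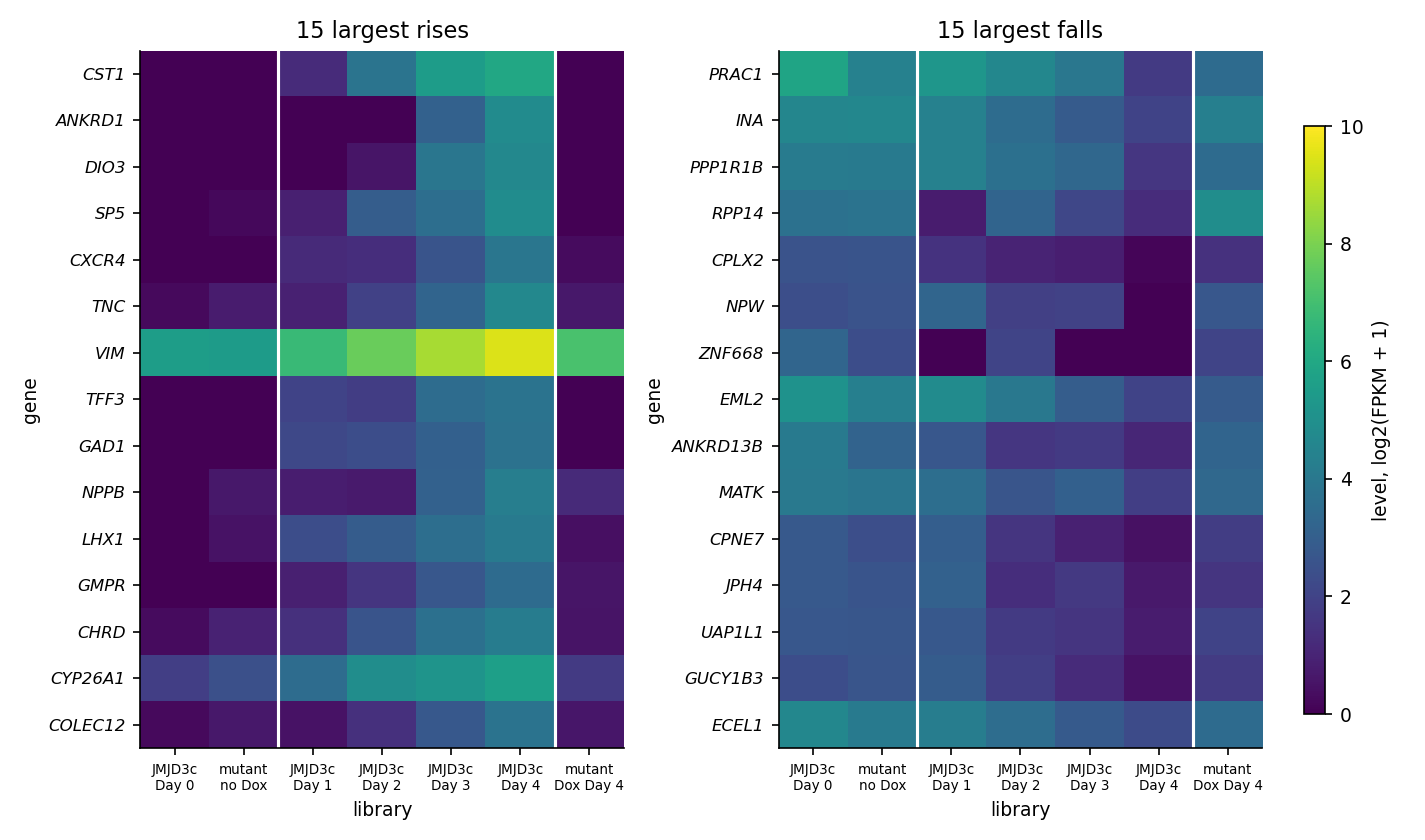
Levels of the 15 largest rises (left) and 15 largest falls (right), as log2(FPKM + 1), in each of the 7 libraries (columns, untreated libraries first, Dox-treated mutant line last), without the genes on the list from the study. VIM runs from 46.9 FPKM at Day 0 to 704 FPKM at Day 4, whereas ANKRD1 is at 0 in 5 of the 7 libraries. On the right, RPP14 is highest in the Dox-treated mutant line (28.7 FPKM).

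Antagonists of NODAL and BMP were listed as secreted proteins, membrane proteins and inhibitory SMADs. Of 13 members above 4 FPKM, 5 were higher (38.5%, beside 3.32% over all entries) and 0 were lower. The higher members were the secreted CER1, CHRD, FST, LEFTY1 and LEFTY2. CHRD (chordin, which binds BMPs) was at 0.241 and 0.935 FPKM untreated, at 1.65, 4.98, 11.9 and 17.3 FPKM at Days 1 to 4, and at 0.423 FPKM in the Dox-treated mutant line. LEFTY1, a feedback inhibitor of NODAL, was at 19.7 and 20.7 FPKM untreated, at 43.3, 45.5, 59.2 and 70.0 FPKM at Days 1 to 4, and at 10.6 FPKM in the Dox-treated mutant line. Its neighbor LEFTY2, 47452 bases away, was at 5.38 and 3.27 FPKM untreated and 23 FPKM at Day 4. In JMJD3c-hESCs these 3 genes were above both untreated libraries on each of Days 1 to 4, of which Day 4 was fixed by the rule. In the Dox-treated mutant line CHRD and LEFTY2 (3.96 FPKM) lay between the untreated libraries, and LEFTY1 lay below both. FST (follistatin, which binds activin) was at 1.94 and 3.1 FPKM untreated and 12.6 FPKM at Day 4, with 4.98 FPKM in the Dox-treated mutant line. Of 15 TGF-beta family ligands and receptors above 4 FPKM, 2 were higher, among them TGFB1 (4.16 and 3.61 FPKM untreated, 25.1 FPKM at Day 4, 4.01 FPKM in the Dox-treated mutant line), whose entry overlaps those of CCDC97, HNRNPUL1 and TMEM91. No Wnt ligand or Frizzled receptor of the 14 above 4 FPKM passed the rule in either direction. The paper reports WNT3 and WNT3A as higher by qRT-PCR and FZD2 among its upregulated genes, against untreated JMJD3c-hESCs alone. Of 14 Wnt targets, receptors and modulators above 4 FPKM, DKK4 and SP5 were higher (14.3%) and LGR4 was lower (7.14%).

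Genes of the primitive streak and its endoderm outside the list from the study gave 13 higher and 1 lower of 23 above 4 FPKM. These are 56.5% and 4.35%, beside 3.32% and 1.61% over all entries. The higher members were APLNR, CCKBR, CXCR4, CYP26A1, FGF17, GSC, LHX1, OTX2, PRDM1, SHISA2, TBX3, TBX5 and VIL1, and the lower member was KDR, a VEGF receptor. CXCR4, GSC and LHX1 are marked in the heat map of the study, though not on that list. GSC and LHX1 are homeobox factors of the organizer. GSC was listed at 0 and 0.775 FPKM untreated, at 0.71, 3.53, 6.05 and 10.5 FPKM at Days 1 to 4, and at 0.295 FPKM in the Dox-treated mutant line. LHX1 was listed at 0 and 0.417 FPKM untreated, at 4.21, 6.42, 11.2 and 15.9 FPKM at Days 1 to 4, and at 0.318 FPKM in the Dox-treated mutant line. LHX1 was thus already apart from the untreated libraries at Day 1, and GSC at Day 2. CXCR4, a chemokine receptor used as a surface marker of definitive endoderm, was listed at 0 FPKM in both untreated libraries, at 1.27, 1.47, 5.11 and 14.1 FPKM at Days 1 to 4, and at 0.211 FPKM in the Dox-treated mutant line. KDR was at 13.1 and 13.4 FPKM untreated, at 9.06, 5.51, 5.37 and 3.79 FPKM at Days 1 to 4, and at 10.2 FPKM in the Dox-treated mutant line.

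Other homeobox genes gave 10 higher and 2 lower of 35 (28.6% and 5.71%, beside 3.32% and 1.61% over all entries). Beyond GSC, LHX1 and 3 genes on the list from the study (EVX1, MIXL1, MSX1), the higher members were EMX1, MEIS3, MSX2, OTX2 and VAX1, and the lower members were IRX1 and PRRX2. OTX2, an anterior factor of epiblast, endoderm and forebrain, was at 18.9 and 15.2 FPKM untreated, at 35.3, 44.8, 43.0 and 47.7 FPKM at Days 1 to 4, and at 7.5 FPKM in the Dox-treated mutant line. It was near its Day 4 level from Day 2 on. EMX1, a forebrain factor, was listed at 0 in both untreated libraries and at 6.7 FPKM at Day 4. Of the T-box and GATA factors 6 of 8 were higher, of which EOMES, T, GATA4 and GATA6 are the study's own examples and TBX3 (1.96, 1.15 and 5.71 FPKM in Day 0, untreated mutant and Day 4) and TBX5 (2.1, 0.963 and 8.34 FPKM) are not. The HOX genes, which pattern the trunk, had no member of 39 above 4 FPKM. Basic helix-loop-helix genes had 4 higher of 10 (40.0%), ID3, ID4, OLIG3 and TWIST1. OLIG3 was at 1.41 and 3.15 FPKM untreated and at 8.46, 20.4, 10.3 and 10.1 FPKM at Days 1 to 4, which made Day 2 its highest day.

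FGF and ERK pathway genes gave 8 higher and 1 lower of 31 (25.8% and 3.23%, beside 3.32% and 1.61% over all entries). DUSP4, a phosphatase that acts on ERK, was at 0.843 and 0.511 FPKM untreated, at 1.69, 2.85, 5.77 and 7.52 FPKM at Days 1 to 4, and at 0.526 FPKM in the Dox-treated mutant line. FGF17, a ligand of gastrulation, was at 0.373 and 0 FPKM untreated and 4.34 FPKM at Day 4, and FGF12, a family member that is not secreted, was at 3.31 and 3.38 FPKM untreated and 13.3 FPKM at Day 4. Both lay within the untreated range or just above it in the Dox-treated mutant line (0.207 and 3.79 FPKM). The other 5 are the immediate early factors EGR1, FOS, FOSL1, FOSL2 and JUN, and FGF11 was lower (15.1 and 4.9 FPKM untreated, 1.65 FPKM at Day 4). EGR1 was at 2.11 and 1.76 FPKM untreated, at 2.94, 6.03, 9.8 and 13.6 FPKM at Days 1 to 4, and at 3.72 FPKM in the Dox-treated mutant line. FOS was at 6.81 and 4.31 FPKM untreated and at 13.7 FPKM at Day 4, but at 6.78 FPKM at Day 3. Genes of this class are induced within minutes of a stimulus.

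Extracellular matrix and mesenchymal genes were among the risers. Matrix proteins other than collagens and laminins gave 6 higher (17.6%, beside 3.32% over all entries) and 0 lower of 34. The higher members were CYR61, FBN2, FN1, GPC4, MATN3 and TNC. FN1 (fibronectin) was at 44.4 and 37.2 FPKM untreated, at 36.2, 40.5, 67.9 and 130.0 FPKM at Days 1 to 4, and at 32.9 FPKM in the Dox-treated mutant line. TNC (tenascin C, a matrix protein that loosens adhesion) was at 0.205 and 0.697 FPKM untreated, at 0.873, 2.87, 8.43 and 24.6 FPKM at Days 1 to 4, and at 0.569 FPKM in the Dox-treated mutant line. FN1 stood apart from the untreated libraries from Day 3 and TNC from Day 2. GPC4, a glypican that carries heparan sulfate, was at 42.7 and 50.4 FPKM untreated and 171 FPKM at Day 4, and was also higher in the Dox-treated mutant line (80.6 FPKM). Of 27 collagens and laminins, 4 (14.8%) were higher (COL2A1, COL4A6, COL8A1 and COL11A1) and 0 were lower. COL2A1 was at 2.5 and 1.95 FPKM untreated and 7.92 FPKM at Day 4, and COL8A1 at 0.408, 1.71 and 5.83 FPKM. HAS2, which makes hyaluronan, was at 2.68 and 3.62 FPKM untreated, at 4.04, 10.3, 15.6 and 24.9 FPKM at Days 1 to 4, and at 2.11 FPKM in the Dox-treated mutant line.

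The list for the epithelial-mesenchymal transition holds regulators and markers of the epithelial or the mesenchymal state. It gave 6 higher (33.3%, beside 3.32% over all entries) and 0 lower of 18. No epithelial member thus passed the rule as lower. Of the 18, 11 lay above both untreated libraries and 5 below both. The higher members were CDH2, CDH11, ITGA5, MMP2, TWIST1 and VIM. CDH2, N-cadherin, was at 19.2 and 18.1 FPKM untreated, at 16.5, 30.0, 36 and 48.6 FPKM at Days 1 to 4, and at 16.4 FPKM in the Dox-treated mutant line. ITGA5, a subunit of the fibronectin receptor, was at 2.25 and 3.44 FPKM untreated, at 10.1, 8.93, 12.8 and 16.2 FPKM at Days 1 to 4, and at 3.01 FPKM in the Dox-treated mutant line. TWIST1, a transcription factor of mesenchyme, was listed at 0 FPKM in both untreated libraries and in the Dox-treated mutant line, and at 5.61 FPKM at Day 4. CDH11 had less separation, with 4.37 and 5.48 FPKM untreated, 12.8 FPKM at Day 4 and 8.93 FPKM in the Dox-treated mutant line. Of 14 claudin and tight junction members, none was higher and 1, TJP3, was lower (7.71 and 5.17 FPKM untreated, 1.39 FPKM at Day 4, 2.31 FPKM in the Dox-treated mutant line). Among cadherins, 4 of 21 were higher, and PCDH10, a protocadherin, went from 0.411 and 0.266 FPKM untreated to 11 FPKM at Day 4.

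Protease inhibitors gave 7 higher and 0 lower of 20, which is 35.0% beside 3.32% over all entries. They include the cystatins CST1 and CST3, which inhibit cysteine proteases, the serpins SERPINB9, SERPINE2 and SERPINI1, and TIMP1, which inhibits matrix metalloproteinases. CST1 (chromosome 20, 23728190 to 23731905) was listed at 0 FPKM in both untreated libraries and in the Dox-treated mutant line, and at 1.35, 13.4, 45.6 and 62.5 FPKM at Days 1 to 4. SERPINE2 was at 29.3 and 29.1 FPKM untreated, at 30.3, 54.3, 91.8 and 162 FPKM at Days 1 to 4, and at 34.1 FPKM in the Dox-treated mutant line. Both had their highest level at Day 4. Proteases themselves gave 2 higher (ADAM19 and MMP2) and 2 lower (HTRA1 and MMP24) of 39, both 5.13%.

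**Figure D3:**
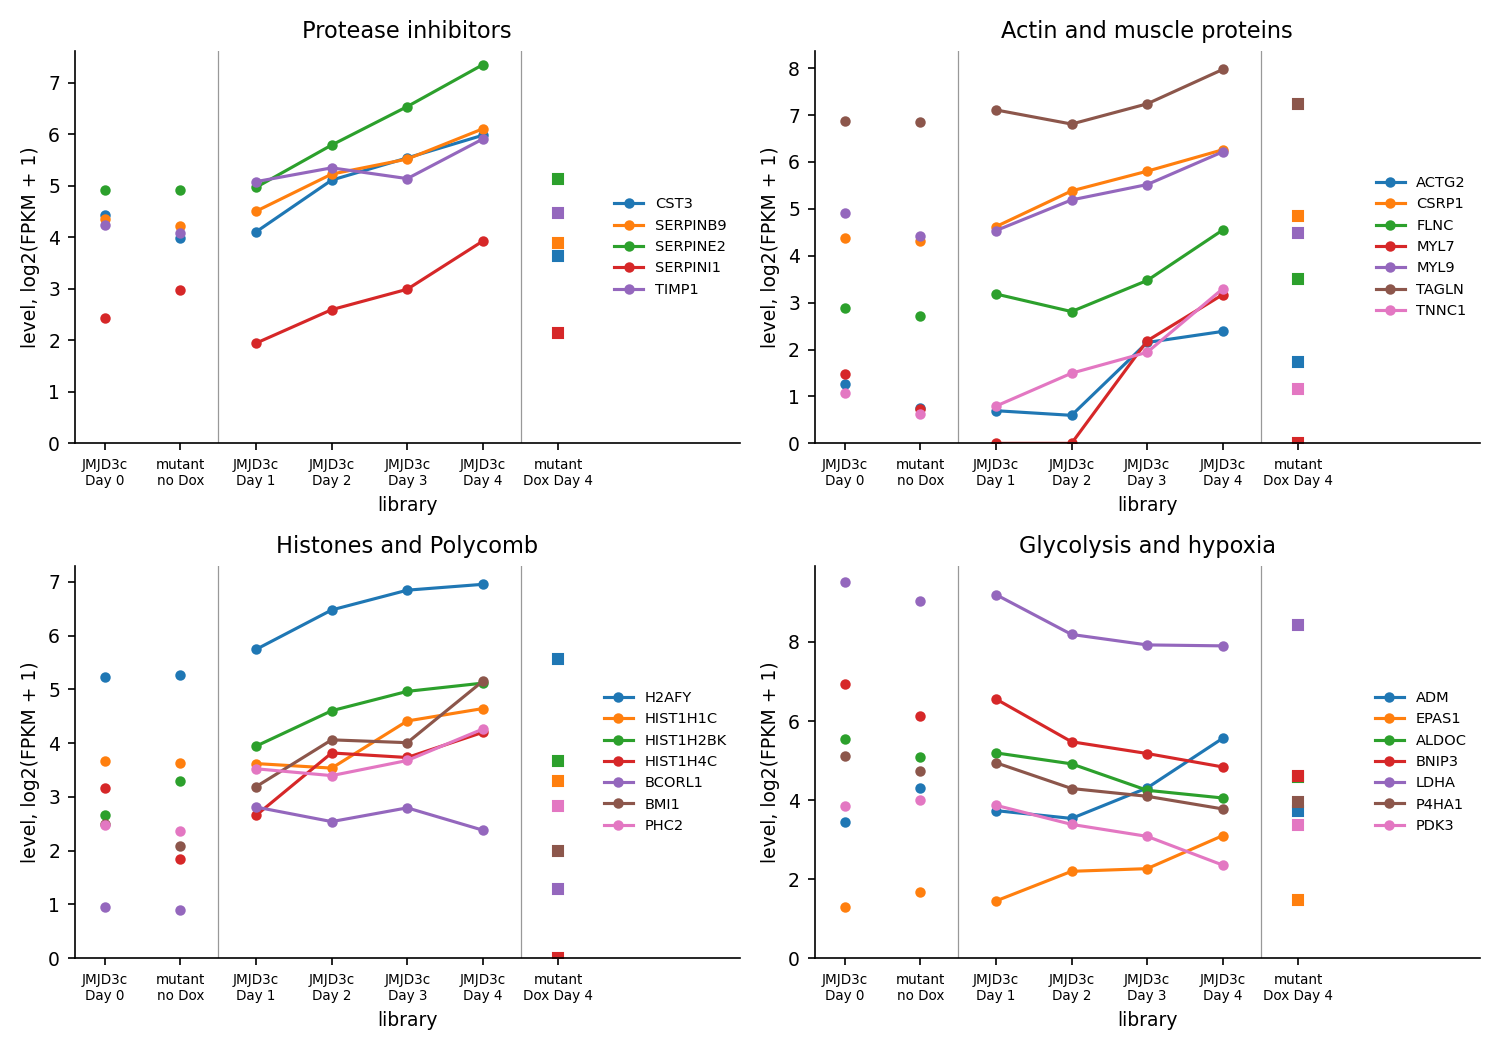
Levels, as log2(FPKM + 1), of genes of 4 functional groups in the 7 libraries. Circles at the left are the untreated libraries, joined circles are Days 1 to 4 of Dox in JMJD3c-hESCs, and squares at the right are the Dox-treated mutant line. SERPINE2 reaches 162 FPKM and TAGLN 250 FPKM at Day 4, and in the lower right panel BNIP3 and P4HA1 lie about as low in the Dox-treated mutant line (23.4 and 14.5 FPKM) as at Day 4 (27.6 and 12.7 FPKM).

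Actin-associated and muscle proteins gave 8 higher (19.5%, beside 3.32% over all entries) and 0 lower of 41. The higher members were ACTG2, ANKRD1, CSRP1, FLNC, MYL7, MYL9, TAGLN and TNNC1. TAGLN, an actin-binding protein of smooth muscle, was the most abundant, at 116 and 114 FPKM untreated, at 137, 111, 150 and 250 FPKM at Days 1 to 4, and at 149 FPKM in the Dox-treated mutant line. CSRP1, a LIM protein of muscle, was at 19.9 and 18.9 FPKM untreated, at 23.6, 40.7, 54.8 and 75.6 FPKM at Days 1 to 4, and at 27.6 FPKM in the Dox-treated mutant line. TAGLN was raised over the untreated libraries chiefly at Day 4, CSRP1 from Day 2. The heart-type proteins were low: MYL7, an atrial myosin light chain, was at 1.8 and 0.669 FPKM untreated and 8.01 FPKM at Day 4, and TNNC1, a troponin, was at 1.1, 0.535 and 8.82 FPKM. RHOC, a GTPase of actin remodeling, was at 46.4 and 29.9 FPKM untreated and 97.7 FPKM at Day 4.

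Cytokines and secreted peptides gave 5 higher and 1 lower of 16 (31.2% and 6.25%, beside 3.32% and 1.61% over all entries). They were CXCL5, GAL, IL32, NPPB and NTS against STC1. GAL (galanin, a neuropeptide present in hESCs) was at 64.0 and 32.4 FPKM untreated, at 68.9, 132, 236 and 325 FPKM at Days 1 to 4, and at 32.4 FPKM in the Dox-treated mutant line. NTS (neurotensin) was at 39.1 and 75.2 FPKM untreated, at 68.5, 145, 171 and 202 FPKM at Days 1 to 4, and at 43.5 FPKM in the Dox-treated mutant line. Both peptides differed between the untreated libraries, and all of Days 2 to 4 lay above them. NPPB, a natriuretic peptide, was at 0 and 0.557 FPKM untreated and 18.4 FPKM at Day 4. G protein-coupled receptors gave 5 higher and 2 lower of 41 (12.2% and 4.88%). The higher members were ACKR3, APLNR, CXCR4, LPAR6 and S1PR3, receptors of chemokines, apelin and lysophospholipids, and the lower members were LGR4 and NPY1R.

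Guidance molecules of axons moved in both directions, 6 higher and 4 lower of 40. EPHA2, EPHA4 and EPHB3 (ephrin receptors), NTN1 (netrin), SLIT2 and PLXND1 were higher, and the ligands EFNA3 and EFNA4, the receptor ROBO2 and SEMA6B were lower. EPHA2 was at 8.36 and 8.48 FPKM untreated, at 7.38, 6.85, 14.1 and 22.6 FPKM at Days 1 to 4, and at 12.3 FPKM in the Dox-treated mutant line. SLIT2 was at 2.01 and 1.67 FPKM untreated, at 2.52, 6.51, 7.13 and 7.78 FPKM at Days 1 to 4, and at 2.2 FPKM in the Dox-treated mutant line. EFNA4 was at 11.1 and 10.3 FPKM untreated, at 9.01, 12.1, 7.49 and 3.75 FPKM at Days 1 to 4, and at 11.8 FPKM in the Dox-treated mutant line. The entries of EFNA3 and EFNA4 overlap, so reads could be split between them.

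Chromatin genes differed between lists. Of 33 Polycomb genes, 3 were higher (BCORL1, BMI1 and PHC2, 9.09% beside 3.32% over all entries) and 0 were lower. Of 61 histone methyltransferases, demethylases and related genes 2 were higher (3.28%), PRDM1 and the induced KDM6B itself, and 2 were lower (3.28%). The share of higher members was close to the 3.32% over all entries. PHC2, a subunit of Polycomb repressive complex 1, was at 4.55 and 4.18 FPKM untreated, at 10.5, 9.53, 11.8 and 18.2 FPKM at Days 1 to 4, and at 6.15 FPKM in the Dox-treated mutant line. BCORL1, a corepressor, was at 0.929 and 0.853 FPKM untreated and at 6.02, 4.82, 5.95 and 4.21 FPKM at Days 1 to 4, so it was at least as high on Day 1 as on Day 4. BMI1 was at 4.65 and 3.27 FPKM untreated, at 8.13, 15.7, 15.1 and 34.6 FPKM at Days 1 to 4, and at 2.96 FPKM in the Dox-treated mutant line, but its reads can be shared with the joined entry COMMD3-BMI1, and its neighbor COMMD3 was also higher. Histones gave 4 higher (14.3%) and 0 lower of 28. H2AFY, which encodes the histone variant macroH2A1, was at 36.4 and 37.3 FPKM untreated, at 52.6, 88.1, 114 and 123 FPKM at Days 1 to 4, and at 46.5 FPKM in the Dox-treated mutant line, although its entry overlaps that of C5orf66. No member of 58 chromatin remodelers was higher and 1 was lower (1.72%, close to the 1.61% over all entries). The lower member was DPF1 (6.99 and 5.08 FPKM untreated, 2.46 FPKM at Day 4, 3.57 FPKM in the Dox-treated mutant line).

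The 15 largest falls were in PRAC1, INA, PPP1R1B, RPP14, CPLX2, NPW, ZNF668, EML2, ANKRD13B, MATK, CPNE7, JPH4, UAP1L1, GUCY1B3 and ECEL1. PRAC1 (chromosome 17, 46799084 to 46799884), a small nuclear protein encoded beside the HOXB cluster, was at 56.2 and 19.8 FPKM untreated, at 37.5, 24.0, 14.5 and 2.27 FPKM at Days 1 to 4, and at 10.4 FPKM in the Dox-treated mutant line. INA (chromosome 10, 105036920 to 105050108), the neuronal intermediate filament alpha-internexin, was at 23 and 23.8 FPKM untreated, at 20.2, 10.5, 6.24 and 2.98 FPKM at Days 1 to 4, and at 19.0 FPKM in the Dox-treated mutant line. PPP1R1B, the dopamine-regulated phosphatase inhibitor DARPP-32, was at 17.1 and 16.2 FPKM untreated, at 20.1, 11.8, 9.07 and 2.02 FPKM at Days 1 to 4, and at 10.2 FPKM in the Dox-treated mutant line. INA and PPP1R1B had near-equal levels in the untreated libraries, whereas PRAC1 differed between them. CPLX2, a complexin of synaptic vesicles, was at 4.83 and 5.04 FPKM untreated and at 1.79, 0.976, 0.784 and 0.0851 FPKM at Days 1 to 4, and at 1.68 FPKM in the Dox-treated mutant line. MATK, a kinase that restrains Src family members, was at 15.7 and 13.9 FPKM untreated, at 11.2, 5.16, 7.49 and 2.65 FPKM at Days 1 to 4, and at 9.48 FPKM in the Dox-treated mutant line. RPP14 and ZNF668 are uncertain: the former was at 28.7 FPKM in the Dox-treated mutant line and 0.684 FPKM at Day 1, and the latter was near 0 in 3 of the JMJD3c libraries and at 3.15 FPKM at Day 2. The RPP14 entry spans only 58303341 to 58303847 on chromosome 3, and the ZNF668 entry 31072813 to 31073451 on chromosome 16. For ZNF668 the lists used another entry of the same name, which passed the rule in neither direction. For RPP14, ZNF668, CPLX2, NPW, EML2, CPNE7 and GUCY1B3, the Cufflinks interval at Day 4 overlapped or touched that of an untreated library.

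Accessory genes of pluripotency gave 6 higher and 6 lower of 54 (both 11.1%, beside 3.32% and 1.61% over all entries). Their median smaller log2 difference, set to 0 where Day 4 lay between the untreated libraries, was -0.22 beside 0.00 over all entries. Of the 54, 37 lay below both untreated libraries and 11 above both, beside 3821 and 3089 of all 10448 entries. The members that passed the rule as lower and are not on the list from the study were TERF1, UGP2 and ZIC5. UGP2, which makes UDP-glucose, was at 257 and 271 FPKM untreated, at 205, 169, 115 and 109 FPKM at Days 1 to 4, and at 210.0 FPKM in the Dox-treated mutant line. TERF1, a telomere-binding protein, was at 178 and 222 FPKM untreated, at 156, 129, 101 and 83.5 FPKM at Days 1 to 4, and at 165 FPKM in the Dox-treated mutant line. ZIC5, a zinc finger factor, was at 15.8, 12.2 and 5.55 FPKM in Day 0, untreated mutant and Day 4. UGP2 and TERF1 showed a lower level on each successive day. The higher members include KLF5 (0.941 and 0.911 FPKM untreated, 4.11 FPKM at Day 4), GAL, NTS, LEFTY1, LEFTY2 and TBX3, several of which are also signals or factors of differentiation.

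Glycolysis gave 0 higher and 3 lower of 28 (10.7% lower, beside 1.61% over all entries). Of the 28, 19 were below both untreated libraries, beside 3821 of all 10448 entries. The 3 lower genes, ALDOC, LDHA and PDK3, were also below both untreated libraries in the Dox-treated mutant line. LDHA, lactate dehydrogenase A (chromosome 11, 18415935 to 18429972), was at 733 and 524 FPKM untreated, at 586, 291, 242 and 238 FPKM at Days 1 to 4, and at 341 FPKM in the Dox-treated mutant line. PDK3, which restrains pyruvate dehydrogenase, was at 13.4 and 15.1 FPKM untreated, at 13.6, 9.45, 7.47 and 4.12 FPKM at Days 1 to 4, and at 9.32 FPKM in the Dox-treated mutant line. Hypoxia-responsive genes gave 2 higher (ADM and EPAS1) and 2 lower (BNIP3 and P4HA1) of 18, both 11.1%. BNIP3, a mitophagy receptor, was at 122 and 68.5 FPKM untreated, at 93.1, 43.5, 35.2 and 27.6 FPKM at Days 1 to 4, and at 23.4 FPKM in the Dox-treated mutant line. DDIT4, an inhibitor of mTORC1, was at 89.8 and 42.4 FPKM untreated, at 52.7, 11.6, 11.3 and 11.9 FPKM at Days 1 to 4, and at 9.08 FPKM in the Dox-treated mutant line. BNIP3 and DDIT4 were lower with the inactive enzyme than at Day 4 with the active one, and the part of Dox itself in these values was not tested. ADM, the vasodilator peptide adrenomedullin, was at 9.92 and 18.9 FPKM untreated, 46.3 FPKM at Day 4 and 12.3 FPKM in the Dox-treated mutant line. Other fallers included FOXN3, a forkhead repressor (42.4 and 33.0 FPKM untreated, 12.4 FPKM at Day 4, 27.9 FPKM in the Dox-treated mutant line), NRARP, a feedback inhibitor of Notch (27.9, 22.7, 8.99 and 19.6 FPKM), and SLC39A10, a zinc importer (53.7, 71.4, 21.5 and 59.7 FPKM).

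**Figure D4:**
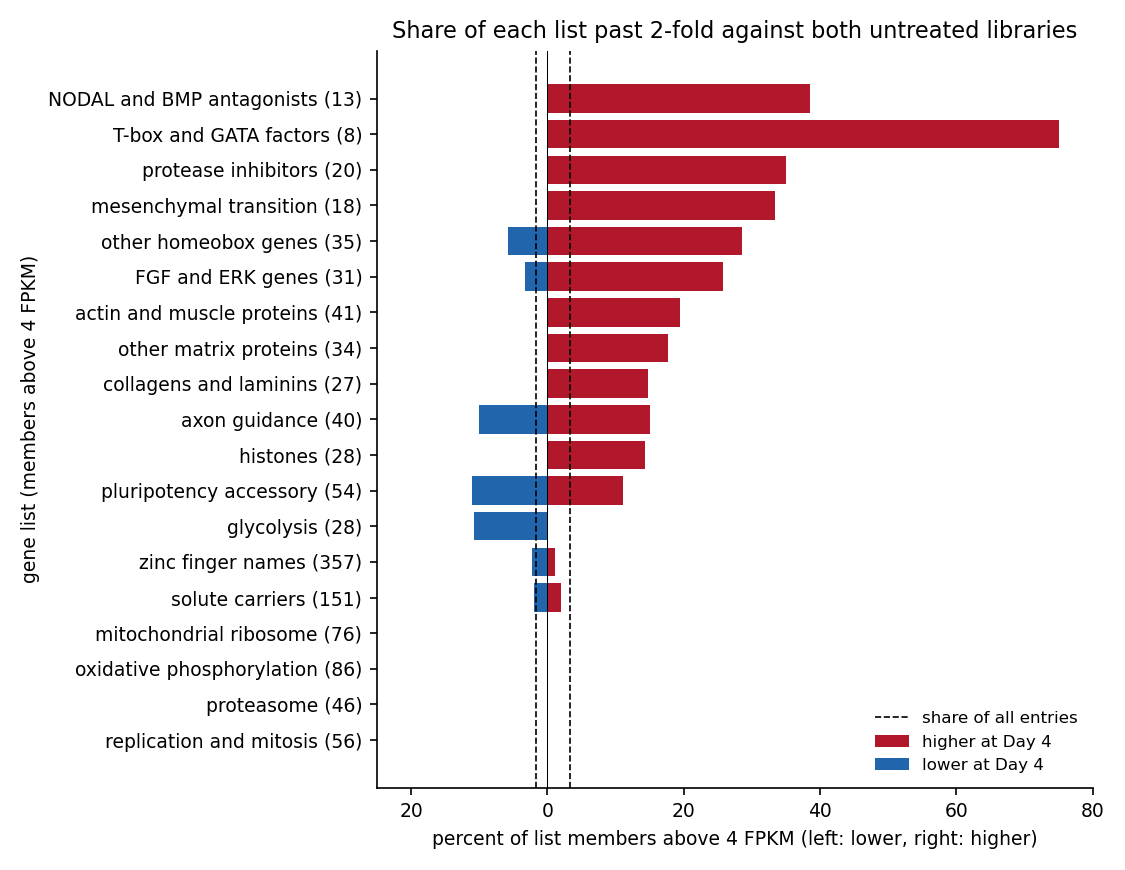
Percent of list members above 4 FPKM that were more than 2-fold higher (red, right) or lower (blue, left) at Day 4 than in both untreated libraries, with the number of members above 4 FPKM in brackets. Dashed lines mark 3.32% and 1.61%, the shares over all 10448 entries. T-box and GATA factors reach 75%, 4 of the 6 being the study's own examples, and the lower 4 lists show no bar.

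Large families of general function held few or no members. None passed the rule in either direction among 76 mitochondrial ribosomal proteins, 86 oxidative phosphorylation genes, 46 proteasome genes, 56 replication and mitosis genes, 32 cholesterol synthesis genes and 23 interferon and antigen presentation genes above 4 FPKM. Zinc finger names gave 4 higher and 8 lower of 357 (1.12% and 2.24%), solute carriers 3 and 3 of 151 (both 1.99%) and ubiquitin ligase genes 5 and 5 of 238 (both 2.1%), beside 3.32% and 1.61% over all entries. Across the lists and name families, 148 risers and 60 fallers were members of at least 1, and 199 risers and 108 fallers of none.

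Markers of other cell types were checked beside these groups. The trophoblast list had 0 called of 4 above 4 FPKM, with a summed level of 703 and 460 FPKM untreated and 696 FPKM at Day 4, most of it KRT8 and KRT18, and with CGA, GCM1, HAND1, TP63 and ELF5 listed at 0. Mesenchyme markers had 3 higher of 6 (TAGLN, TWIST1 and VIM) and a summed level of 315 and 253 FPKM untreated, 1122 FPKM at Day 4 and 420.0 FPKM in the Dox-treated mutant line. Most of the Day 4 sum was VIM (46.9 and 44.1 FPKM untreated, 704 FPKM at Day 4) and TAGLN (116, 114 and 250 FPKM). THY1, also abundant, was at 118, 76.1 and 124 FPKM. The fibroblast matrix genes DCN and LUM and the fibroblast protease FAP were listed at 0 in all of these libraries, COL3A1 was listed at 0 at Day 4, and COL1A1 was at 11.3 and 4.18 FPKM untreated and 7.42 FPKM at Day 4. Neural ectoderm markers had 3 higher of 10 (OTX2, PAX6 and ZIC1), with sums of 390.0 and 336 FPKM untreated and 454 FPKM at Day 4. PAX6 was highest at Day 1 (9.62 FPKM) and at 5.91 FPKM at Day 4. Blood and endothelial markers had 1 higher (FLI1) and 1 lower (KDR) of 2, and the only member of the hepatic list above 4 FPKM, APOA2, was at 6.2 FPKM at Day 4 and 0 untreated, while ALB and TTR were listed at 0. The part of these markers in the results was not tested. In bulk RNA a few cells with a high level and many with a low level cannot be told apart.

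The 4 libraries that did not enter the rule gave a separate look at the same genes. Day 3 of JMJD3c-hESCs was set against the Dox-treated mutant line, and 252 of the 347 risers exceeded 4 FPKM in either library. Of the 252, 139 (55.2%) were more than 2-fold higher and 6 (2.38%) more than 2-fold lower, with more than 4 FPKM in the higher library. Over all entries 6.8% were higher and 1.98% lower of 10093. The median log2 difference of the 252 was 0.98, beside 0.04 over all entries. Of the 168 fallers, 137 exceeded 4 FPKM in either library. Of the 137, 23 (16.8%) were lower and 5 (3.65%) were higher, and their median was -0.27. The 2 libraries share no control with the rule, but Day 3 and Day 4 come from the same induced line. In the order of days, 142 risers had Day 1 below Day 2 below Day 3, of 268 above 4 FPKM in any of the 3 (53%), beside 22.1% over all entries. The opposite order was found for 79 of 153 fallers (51.6%), beside 16.6%. The median level of the 347 risers was 2.27 and 2.42 FPKM untreated, 3.69, 5.03, 6.4 and 9.84 FPKM at Days 1 to 4 and 2.92 FPKM in the Dox-treated mutant line. For the 168 fallers it was 12.5 and 9.86 FPKM untreated, 9.38, 7.39, 6.55 and 3.31 FPKM at Days 1 to 4 and 8.61 FPKM in the Dox-treated mutant line.

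**Figure D5:**
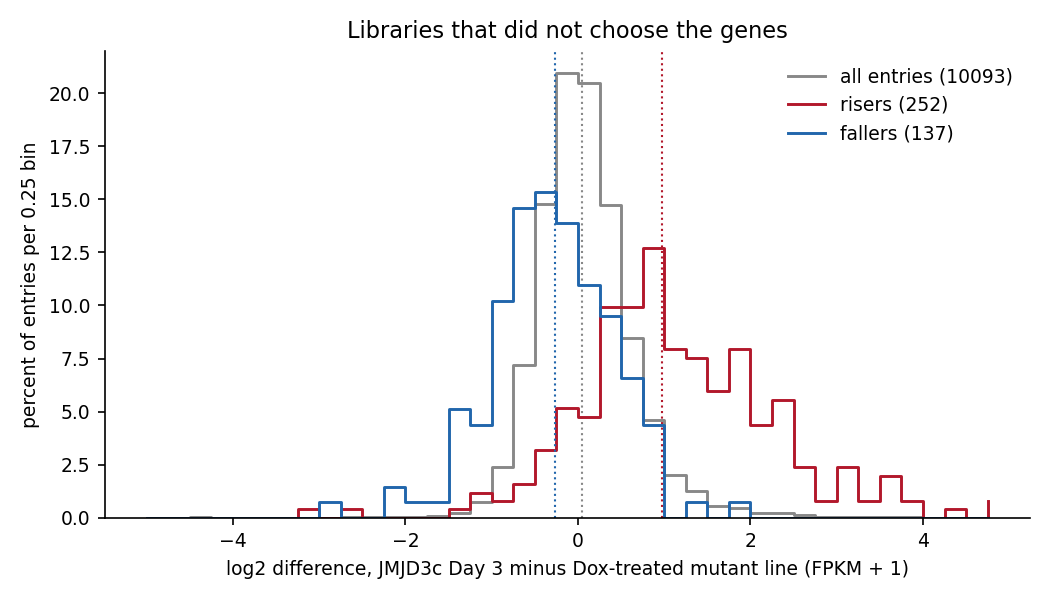
Distribution of the log2 difference (FPKM + 1) between Day 3 of JMJD3c-hESCs and the Dox-treated mutant line, in percent of entries per bin of 0.25, over entries above 4 FPKM in either of these libraries. The dotted lines are medians: 0.98 for 252 risers (red), -0.27 for 137 fallers (blue) and 0.04 for all 10093 entries (gray).

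Not every call was equally firm. The Cufflinks 95% intervals of Day 4 were apart from those of both untreated libraries for 175 risers (50.4%) and 70 fallers (41.7%), and these intervals describe 1 library each. The entry overlapped another for 95 risers (27.4%) and 51 fallers (30.4%), where reads could be assigned to either gene. Of the risers 18 were listed at 0 in both untreated libraries, and 2 fallers were listed at 0 at Day 4. The smaller of the 2 ratios was below 2.5-fold for 115 risers and 86 fallers. Just inside the upper limit lay DTWD2, PSMC3IP and IFFO1 (ratio 2.01 to the nearer untreated library), and just outside it FAM213A (2.0), PCGF5 and TUBB2B (1.99). At the lower limit SOHLH2, RAD54B and HINFP (0.498) were counted and FABP3, RNASET2 (both 0.5) and PSMG4 (0.501) were not. Called genes lay next to each other on the chromosome, within 50 kb and with no other called gene between, in 35 pairs, of which 17 were both higher, 11 both lower and 7 in opposite directions. Among them are SLFN12 and SLFN13 (1813 bases apart, higher), KDM6B and TMEM88 (269 bases, higher) and TMEM102 and FGF11 (594 bases, lower). In some pairs, such as EFNA3 with EFNA4 and H2AFY with C5orf66, the entries overlap, so the same reads could lie behind both calls. How often other entries lie as close was not counted.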

How the data were processed

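RNA-seq values were analysed for 7 libraries, 1 per condition. Per the labels and the study's methods, poly(A) RNA was made into directional libraries and sequenced on a MiSeq as 150-base single-end reads. The submitters' processing notes name CASAVA 1.4, TopHat2 2.0.13, Cufflinks 2.1.1 and hg19. The authors deposited an FPKM value per gene with Cufflinks 95% bounds in FPKM. The annotation release and the strand setting are not given in the sources used here. Entries on another strand at the same place may therefore share reads.

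From the deposited FPKM, ratios were calculated without a pseudocount and log2 differences after adding 1, which understates the change of low genes. All 22670 entries were kept. Where a name had several entries, the one with the highest mean was used in lists. The unit of every tested entry is FPKM and no count model applies. Depth was estimated from steps between low values: relative depth from the commonest ratio, and Day 0 depth from 23 single-exon genes with 200 bases subtracted from the transcript length. Promoters were matched by Ensembl identifier, symbol or synonym, taking the first listed start.

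The rule, the genes and the 66 lists were chosen with earlier results of these data known. The 4 lists named in the closing section were written after the values were seen, as was the removal of 4 symbols that a name pattern had caught by mistake (TASP1, PSMC3IP, ZFP36 and CAMKMT). Named genes are CER1, EOMES, TET1, DPPA2 and KDM6B, the 15 largest rises and falls by the smaller log2 difference (without the list of genes from the study, small RNAs, spans under 300 bases, clone-based and joined names), up to 6 called genes per list and direction, and the 3 on each side of each limit. Other genes are named where the called members of a list are given. Called genes outside these rules are not named, and a few further results are not reported here. Calculations used Python 3.11.15, numpy 2.4.6, pandas 2.3.3 and matplotlib 3.10.9, and were tested on simulated data. Alternatives changed the cutoff, fold, scaling, intervals, entries and reference library.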

Additional observations from a re-analysis of the deposited data

Results flagged for a closer look

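For 8 of the called genes, Dox was accompanied by changes in opposite directions in the JMJD3c line (Day 4 against Day 0) and in the mutant line (Dox-treated against untreated), each time by more than 2-fold, with more than 4 FPKM in the higher library. Each value below is the log2 change in the JMJD3c line minus that in the mutant line, after adding 1 to FPKM. With 1 library per condition, none of these differences was tested.

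Among the genes higher at Day 4 the largest was in SLFN13, a Schlafen family gene, with 3.51: it was at 3.17 and 19.7 FPKM at Day 0 and Day 4, and at 8.53 and 3.14 FPKM in the mutant line without and with Dox. GPX2, a glutathione peroxidase, gave 3.47, with 3.85 and 18.0 FPKM against 8.66 and 2.41 FPKM, although it was at 1.21 FPKM at Day 3. RAB17, a GTPase of epithelial transport, gave 2.68 (6.54 and 25.5 FPKM against 8.46 and 4.19 FPKM). SERPINI1, the protease inhibitor neuroserpin, gave 2.33 (4.39 and 14.2 FPKM against 6.89 and 3.43 FPKM). OTX2 gave 2.23 (18.9 and 47.7 FPKM against 15.2 and 7.5 FPKM), and KCNG1, a potassium channel subunit, gave 2.22 (7.19 and 20.3 FPKM against 5.57 and 2.66 FPKM). Genes lower at Day 4 were RPP14 with -3.53 (12.3 and 1.42 FPKM against 13.1 and 28.7 FPKM) and SLC1A6, a glutamate transporter, with -2.33 (6.9 and 2.39 FPKM against 5.5 and 13.1 FPKM). The entry of SLC1A6 overlaps that of CCDC105. RPP14 was uneven, at 0.684, 8.44 and 3.32 FPKM at Days 1 to 3. Its Cufflinks intervals were wide, 1.85 to 22.2 FPKM at Day 0 and 0 to 5.39 FPKM at Day 4.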

How the results depend on the processing

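The counts depended on the cutoff, on the fold and on the untreated library, and less on the scaling. With 1 FPKM in place of 4 FPKM, 709 genes were higher and 425 lower, with 10 FPKM 171 and 79, and with no cutoff 1443 and 913. At 1.5-fold the counts were 706 and 634, and at 3-fold 179 and 53. Requiring the Cufflinks intervals to be apart left 175 and 70. Against Day 0 alone they were 602 and 775, and against the untreated mutant line alone 708 and 392. With Day 3 in place of Day 4, 76 genes were lower and 258 higher. Scaling by the median ratio gave 366 and 149, by the upper quartile 396 and 142, and adding 1 FPKM gave 282 and 116. Against the Dox-treated mutant line, 90 risers were higher and 15 fallers lower at Day 2, and at 1.5-fold 50 fallers were lower at Day 3. The cause of these shifts was not tested. Of the named genes, 217 of 222 still passed after scaling by the median ratio, 193 with 1 FPKM added and 137 with intervals apart. The direction of each of the 222 was kept under both scalings.

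No paired analysis was possible because each condition had 1 library, and none has a second library to leave out. Depth limits low values: 1 read of a 2000-base transcript is 0.156 FPKM at Day 0, 0.0756 FPKM in the untreated mutant line and 0.114 FPKM at Day 4. A level listed at 0 shows only that it was not detectable at that depth.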

Other observations

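The genes below belong to 4 lists written after the values were seen, so their counts are descriptions of genes already known to be called. Hormone peptides, granins and their processing enzymes gave 9 higher and 1 lower of 16 members above 4 FPKM: ADM, CHGA, CPE, GAL, NPPB, NTS, QPCT, SCG5 and VGF against NPW. CPE, the carboxypeptidase that trims prohormones, was at 3.8 and 5.27 FPKM untreated, at 7.24, 10.3, 15.5 and 27.2 FPKM at Days 1 to 4, and at 4.38 FPKM in the Dox-treated mutant line. SCG5, a granule chaperone, was at 1.23 and 1.2 FPKM untreated, and was as high in the Dox-treated mutant line (5.21 FPKM) as at Day 4 (5.74 FPKM). NPW, a neuropeptide, was at 4.28 and 4.85 FPKM untreated and listed at 0 at Day 4. Targets of YAP and TEAD gave 6 higher and 0 lower of 14: AMOTL2, ANKRD1, CYR61, F3, FJX1 and NUAK2. CYR61 was at 15.9 and 14.1 FPKM untreated, at 17.1, 12.3, 19.1 and 38.5 FPKM at Days 1 to 4, and at 16.0 FPKM in the Dox-treated mutant line, so that Day 4 alone stood out among the 7 libraries. AMOTL2 was at 17.3 and 16.1 FPKM untreated and 36.5 FPKM at Day 4.

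Immediate early and primary response genes gave 12 higher and 0 lower of 29: BTG2, CSRNP1, CYR61, DUSP4, EGR1, FOS, FOSL1, FOSL2, JUN, PHLDA1, PPP1R15A and ZFP36. BTG2, which restrains proliferation, was at 1.34 and 1.2 FPKM untreated, at 2.84, 2.97, 6.37 and 9.32 FPKM at Days 1 to 4, and at 0.994 FPKM in the Dox-treated mutant line. FOSL1 was at 1.81 and 1.67 FPKM untreated, 6.54 FPKM at Day 4 and 4.07 FPKM in the Dox-treated mutant line. Axonal and synaptic proteins ran the other way, with 3 higher (ACHE, CNTNAP2 and GAD1) and 13 lower of 32. The lower members included ATCAY, BRSK2, CAMKV, CPLX2, INA, JPH4, KIF5A, MAST1, NSG1, PPFIA3 and PPP1R1B. CAMKV, a kinase-like protein of synapses, was at 27.1 and 22 FPKM untreated, at 15.9, 12.6, 11.9 and 8.16 FPKM at Days 1 to 4, and at 17.7 FPKM in the Dox-treated mutant line. CNTNAP2, a neurexin family adhesion protein, was at 23.5 and 22.1 FPKM untreated and 63.2 FPKM at Day 4.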
